A study of Homo sapiens with 3 samples.

Results

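The miRNAs numbered from 3000 up to but below 5000 are human hairpins that entered the miRBase registry late, since numbers are given in the order of registration and most came from deep sequencing. Members were taken by name, as every hairpin and mature row with such a number, leaving out the 4 entries mir-3155a, mir-3607, mir-3651 and mir-3653. This gave 165 mature names of 783 listed in all, or 21.1%, and 162 hairpin rows of 661. The levels were not used to choose them.

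A miRNA is cut from a folded hairpin by Drosha in the nucleus and by Dicer in the cytoplasm, which leaves a duplex of a 5p and a 3p arm. Usually 1 arm is loaded into an Argonaute protein and the other is degraded, and bases 2 to 8 of the loaded arm, the seed, pair with target mRNAs. Early entries were mostly found by cloning of abundant and conserved miRNAs, whereas late entries include many that are found in few species and at low levels.

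Small RNA had been sequenced from MV4-11, a human acute myeloid leukemia line with an internal tandem duplication in FLT3 (FLT3-ITD+), in a study of which miRNAs affect its growth. The study describes the line as also carrying the MLL-AF4 fusion. All 3 libraries came from cells labelled WT that had been infected with EV, a lentiviral CRISPR-Cas9 construct that targets no gene, 2 weeks before RNA was taken. The libraries form 1 group of 3 replicates, with no untreated or otherwise treated group, and the labels do not say whether the replicates were separate infections. Spread and p-values below therefore measure the differences between these 3 libraries, which may be technical.

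Replicates 1, 2 and 3 held 12694823, 10991953 and 11682129 mature counts, so 1 count stood for 0.0788 to 0.0910 reads per 1000000 mature counts (RPM). Of 8 markers of white blood cells all were listed, with summed counts of 950903, 948587 and 933601. The sum held opposite moves, as miR-146b-5p had 501026, 295824 and 219129 counts and miR-142-3p had 58425, 163515 and 180242. The lowest was miR-150-5p at 7, 11 and 21 counts. Of 12 markers of other tissues 10 were listed (miR-1-3p and miR-375 had no row), and their summed counts were 99173, 107802 and 110030. Most of these belonged to miR-9-5p, at 88186, 90286 and 85725 counts, and miR-124-3p had 5145, 12461 and 19065. The list held both as nerve cell markers, and whether they mark such cells in this leukemia line was not tested. The part of these markers in the results below was not tested.

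The sequences of the most abundant members show how unlike each other they are, and a second group shows the members that share a seed. A mature sequence in the RefSeq table (GRCh38.p14) was matched to 143 of the 165 names. Each is written 5′ to 3′ with the seed, bases 2 to 8, in capitals.
hsa-miR-4497: cUCCGGGAcggcugggc
hsa-miR-4521: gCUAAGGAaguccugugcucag
hsa-miR-3613-5p: uGUUGUACuuuuuuuuuuguuc
hsa-miR-3613-3p: aCAAAAAAaaaagcccaacccuuc
hsa-miR-3615: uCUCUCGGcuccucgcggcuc
hsa-miR-4518: gCUCAGGGaugauaacugugcugaga
hsa-miR-3158-3p: aAGGGCUUccucucugcaggac
hsa-miR-4420: gUCACUGAugucuguagcugag
hsa-miR-3176: aCUGGCCUgggacuaccgg
hsa-miR-3922-3p: uCUGGCCUugacuugacucuuu
hsa-miR-4434: aGGAGAAGuaaaguagaa
hsa-miR-4516: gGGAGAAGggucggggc

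miR-4497, the most abundant member, is 17 bases long with 82.4% G and C, while miR-3613-5p is 22 bases long with 22.7% G and C and a run of U in its middle. The 143 matched members spanned 22.7% to 94.4% G and C, with a median of 56.5%, against a median of 47.6% for the 369 matched names numbered below 1000 and of 59.1% both for those from 1000 to below 3000 and for those from 5000 upward. miR-3176 and miR-3922-3p had the same seed, as did miR-4434 and miR-4516. miR-4429 shared its seed with miR-320b, miR-320c and miR-320d, miR-4420 with miR-181b-3p, and miR-4676-3p with miR-452-5p. A further 7 members shared a seed with 1 other listed miRNA each, among them miR-3173-5p with miR-6799-3p and miR-4665-5p with miR-1275. Seeds were compared only among names with a matched sequence, so a shared seed of an unmatched name could not be found. None of the matched members shared its seed with a matched name among the 50 most abundant in the libraries.

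The matched members lay across the genome (GRCh38, GENCODE annotation of the same strand). An intron held 76 of them, an exon of a UTR 17, an exon of a noncoding transcript 9 and a coding exon 4, and 37 lay in no gene on their strand. The last are 25.9% of the matched members, against 14.4% of the matched names below 1000 and 4.55% of those from 5000 upward. miR-4497 at chr12:109833350-109833366 (+) lay in no gene on its strand and opposite TRPV4, which encodes a cation channel. miR-4521 at chr17:8186948-8186969 (+) lay in no gene on either strand.

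Host genes of the abundant members included some known from blood cells. miR-4518 at chr16:30503968-30503993 (+) lay in an intron of ITGAL, which encodes the alpha chain of the leukocyte integrin LFA-1. miR-4420 at chr1:30739158-30739179 (-) lay in an intron of LAPTM5, a lysosomal membrane protein gene of blood cells, and miR-3690 in an intron of CSF2RA, which encodes a chain of the receptor for GM-CSF. Both arms of miR-3613 lay in an intron of DLEU2, the long noncoding RNA that also carries miR-15a and miR-16-1, with the 5p arm at chr13:49996465-49996486 (-). miR-3615 at chr17:74748663-74748683 (+) lay in a UTR exon of SLC9A3R1, which encodes a scaffold protein. miR-3173-5p lay in an intron of DICER1, the gene of Dicer itself, and miR-3158-3p in an intron of DPCD. The levels of these host transcripts were not analysed here.

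The members together held little of the small RNA. They took 59061, 56735 and 62899 mature counts, which was 0.465%, 0.516% and 0.538% of all mature counts in replicates 1, 2 and 3. The FPKM scale divides counts by the library total and by a length that the authors used for the miRNA. For miR-4497, miR-3613-5p and miR-4518 that length was slightly below that of the sequence printed above. On this scale the members' share was 0.544%, 0.574% and 0.582%. The spread between replicates was small beside the level of the share.

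Most members had few counts. The median member had 18, 21 and 22 counts, and 109 of 165 names reached 10 counts in every library, against 615 of all 783. At least 100 counts in every library were found for 21 members, at least 1000 for 6, and at least 10000 for miR-4497. The median of the members' mean FPKM was 89.3, against 1730 for the 422 names below 1000, 340 for the 64 names from 1000 to below 3000 and 61.3 for the 127 names from 5000 upward. The median was thus lower in each later range, and 32 members lay above the median rank of all names. The plot of levels by number shows the members' curve to the left of the curves of earlier names and close to that of the latest.

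**Figure D1:**
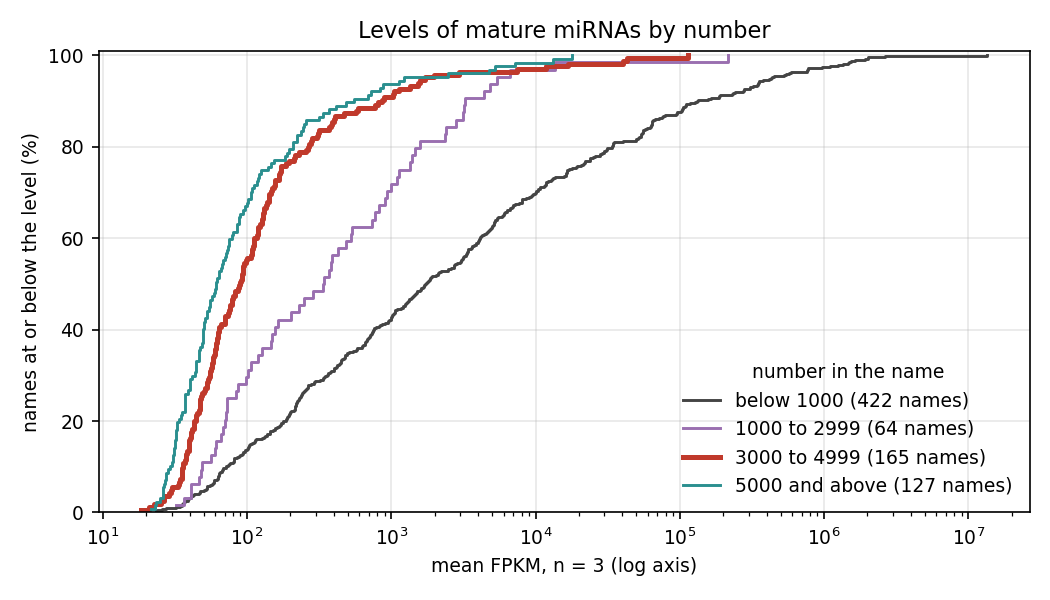
Cumulative share of mature names (vertical axis, percent) at or below each mean FPKM (horizontal log axis, n = 3 libraries), for 4 ranges of the number in the name. Names from 3000 to below 5000 (thick red line) had a median of 89.3 FPKM and those below 1000 a median of 1730 FPKM.

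A few members held nearly all of the members' reads. The 3 highest took 70.0%, 70.7% and 71.4% of the members' counts in replicates 1, 2 and 3, and the 6 highest took 84.0%, 86.7% and 87.0%. The 20 highest took 93.8%, 93.5% and 93.2%. The concentration was thus alike in the libraries, while the miRNA that led it was not, as the values of the 3 highest show.

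miR-4497 had 30869, 19681 and 15028 counts in replicates 1, 2 and 3, or 2432, 1790.5 and 1286 RPM. It made up 52.3% of the members' counts in replicate 1, 34.7% in replicate 2 and 23.9% in replicate 3. Its level was 114736 ± 35867 FPKM (SD, n = 3), rank 47 of 783. Replicate 1 was the highest and replicate 3 the lowest.

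miR-4521 went the other way, with 4447, 9443 and 17405 counts, or 350.3, 859 and 1490 RPM. Its mean level was 42836 ± 27178 FPKM (SD, n = 3), rank 82. In replicate 3 it was above miR-4497 in counts but below it per length, at 70931 against 80382 FPKM. miR-4497 therefore led in each of the 3 libraries on the FPKM scale, and in 2 of 3 by counts.

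miR-3613-5p followed with 6014, 11009 and 12487 counts and 40375 ± 15516 FPKM (SD, n = 3), rank 83. Replicates 2 and 3 were close to each other and replicate 1 was lower. The means of miR-4521 and miR-3613-5p differed by less than the SD of either, so their order is not resolved.

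miR-3615 had 4345, 3557 and 4024 counts and 16835 ± 573 FPKM (SD, n = 3), rank 112. miR-4518 had 2127, 4003 and 4148 counts and 11821 ± 4439 FPKM (SD, n = 3), rank 129. miR-4326 had 1821, 1522 and 1624 counts and 7383 ± 144 FPKM (SD, n = 3), rank 147. These were the last of the 6 members with 1000 counts or more in every library. Per length miR-3615 was above miR-4518 in 3 of 3 libraries, but miR-4518 was below miR-4326 in replicate 1 and above it in the others.

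The next 4 members were well below these. miR-3158-3p, whose 2 rows for 2 hairpins were summed, had 961, 632 and 597 counts and 2925 ± 608 FPKM (SD, n = 3), rank 214. miR-4664-3p had 756, 358 and 372 counts and 1967 ± 752 FPKM. miR-4420 had 418, 399 and 459 counts and 1722 ± 152 FPKM. Of these, miR-3158-3p and miR-4664-3p were highest in replicate 1 and miR-4420 varied least. miR-4746-5p had 595, 341 and 304 counts and 1574 ± 495 FPKM (SD, n = 3), rank 248. From miR-4664-3p to miR-4746-5p neighbours differed by less than the larger of their SDs, so their order is not resolved.

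**Figure D2:**
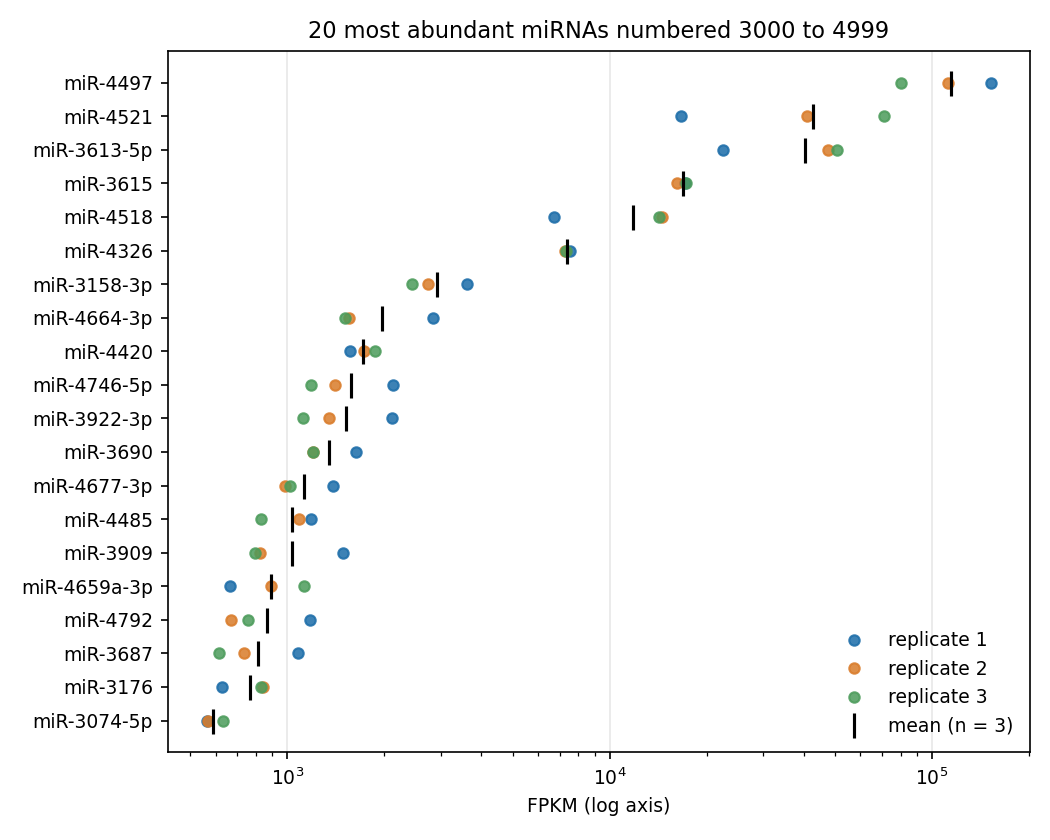
FPKM (horizontal log axis) of the 20 most abundant members in each of the 3 replicates (coloured points), with the mean of the 3 as a black bar. miR-4497 lies highest at a mean of 114736 FPKM. Of the 20, 12 have their highest value in replicate 1, against 20.7% of all names above 0 in replicate 1.

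The hairpin table gave the same leading entries, since it counts the same reads. Beyond the hairpins of the names above, the most counts were those of mir-3922 with 568, 320 and 283, mir-4677 with 388, 247 and 287 and mir-3909 with 398, 191 and 199. mir-4485 had 295, 240 and 193 counts and mir-3687 had 322, 198 and 177. Each of these 5 hairpins had its most counts in replicate 1.

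At the other end, miR-3145-3p had 3, 1 and 11 counts, miR-4755-3p had 10, 3 and 3, and miR-4461 had 10, 2 and 6. Their mean levels were 18.4, 20.9 and 22.5 FPKM, ranks 783, 782 and 780. miR-4286 had 0, 4 and 10 counts and was the only mature member not above 0 in every library, and the limit that a count of 0 allows is 3 counts. Over the 3 libraries the coefficient of variation was 108% for miR-3145-3p, where counting alone would give 44.7%, and no test was made of these low counts. The tables list only rows that reached 10 counts in at least 1 library, so members with no row have no level here.

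Which arms were listed differed between members. Of the 141 numbers with a mature row, 24 had both arms, 22 the 5p arm alone, 22 the 3p arm alone and 73 a name with no arm, which is given where 1 product of the hairpin is annotated. The median of the mean FPKM was 90.1 for names of numbers with both arms and 93.0 for names with no arm, and 65.2 and 81.9 for lone 5p and 3p arms. These medians lay close together beside the range of the members. A further 13 numbers had a hairpin row and no mature row.

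The arms of a hairpin were compared within each library to learn which of them accumulated. All 24 member pairs entered the edgeR quasi-likelihood test, and 17 were called, with a Benjamini-Hochberg adjusted p under 0.05 over all 195 pairs and a log2 ratio of at least 1 in size. That is 70.8% of the member pairs, against 82.1% of all pairs tested. Toward 5p 6 were called, 25.0% against 40.5% of all pairs, and toward 3p 11, 45.8% against 41.5%. The 17 called pairs kept the same side in 3 of 3 libraries.

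The ratios of the members were also smaller than those of all pairs. The median absolute log2 ratio was 1.82 in the members and 3.17 in all pairs, and the median SD between libraries was 0.77 and 0.52. In 9 member pairs did both arms reach 10 counts in every library, so most ratios rest on a thinly covered lower arm. Both arms had to be listed and above 0 in every library, which bounds the ratio that a hairpin of few reads can show. No comparison with other pairs at matched counts was made. The part of depth in the smaller ratios and the lower share called was therefore not tested.

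The pair of miR-3613 stood apart toward 5p. The 5p arm had 6014, 11009 and 12487 counts and the 3p arm 36, 70 and 107. The log2 ratio of 5p to 3p was 7.17 ± 0.31 (edgeR SE, adjusted p = 1.05e-05), and it was 7.38, 7.30 and 6.87 in the 3 libraries. The 2 arms, printed above, are U-rich and A-rich strands of the same hairpin.

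The other 5p calls were modest. miR-3064, whose hairpin lies in an exon of a noncoding transcript of the RNA helicase gene DDX5, had 33, 36 and 31 counts of the 5p arm and 3, 7 and 12 of the 3p arm, a log2 ratio of 2.23 ± 0.48 (edgeR adjusted p = 0.00608). miR-3065 had 18, 47 and 62 counts of 5p and 6, 11 and 10 of 3p, a log2 ratio of 2.14 ± 0.37 (adjusted p = 0.00247). miR-3074 had 143, 125 and 148 counts of 5p and 24, 44 and 47 of 3p, a log2 ratio of 1.89 ± 0.35 (adjusted p = 0.0034). miR-3614, in a UTR exon of TRIM25, a ubiquitin ligase gene, had a log2 ratio of 1.83 ± 0.37 and miR-4755 of 1.49 ± 0.46. miR-4755 was the weakest of the 6 and lost its call without replicate 2 (adjusted p = 0.115) and without replicate 3 (adjusted p = 0.0954).

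Toward 3p the largest ratio was that of miR-4664. The 3p arm had 756, 358 and 372 counts and the 5p arm 5, 12 and 16, a log2 ratio of -5.41 ± 0.62 (edgeR SE, adjusted p = 0.00044). Replicate 1 had the highest 3p count and the lowest 5p count, and its ratio of -7.24 was the most extreme. Next came miR-4677, in an intron of SDCCAG8, with 370, 227 and 251 counts of 3p and 17, 20 and 36 of 5p, a log2 ratio of -3.55 ± 0.43 (adjusted p = 0.000564). miR-3928 had -3.52 ± 0.41, miR-3177 -3.25 ± 0.33, miR-3940, in an intron of the RNA-binding protein gene KHSRP, -2.96 ± 0.33, miR-4747 -2.62 ± 0.40 and miR-3187 -2.51 ± 0.33. These 7 pairs were called in every alternative fit in which they were tested.

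miR-3140, in an intron of the tumor suppressor gene FBXW7, had 20, 25 and 42 counts of 3p and 2, 12 and 12 of 5p, a log2 ratio of -1.81 ± 0.47 (edgeR adjusted p = 0.0137). miR-4742 had -1.64 ± 0.48, miR-4687, in a UTR exon of STIM1, -1.54 ± 0.50, and miR-3605 -1.45 ± 0.32. The last 3 missed the threshold without replicate 2, at adjusted p-values of 0.0688, 0.0592 and 0.0597. The direction of these 4 pairs was toward 3p in 3 of 3 libraries.

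Of the 7 pairs not called, 6 had libraries on both sides of equal arms. miR-3157 had 28, 51 and 77 counts of 5p and 68, 25 and 48 of 3p, and miR-4423 had 15, 3 and 5 counts of 5p and 3, 9 and 17 of 3p. In both pairs replicate 1 lay on the other side from replicates 2 and 3. miR-3677, with 27, 18 and 20 counts of 5p and 43, 49 and 35 of 3p, was toward 3p in 3 of 3 libraries at -0.97 ± 0.33 (edgeR adjusted p = 0.0348) but did not reach the size required. Without replicate 1 it was called, as were miR-4423 and miR-4745.

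**Figure D3:**
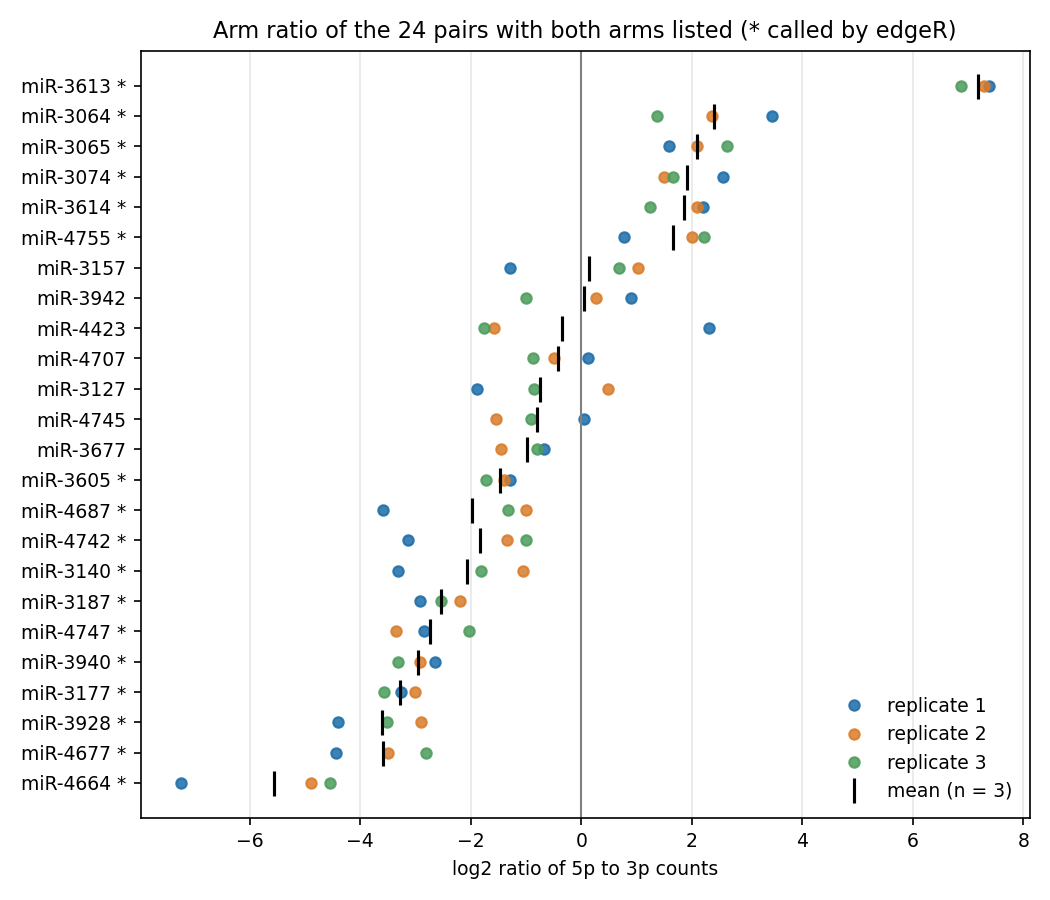
Log2 ratio of 5p to 3p counts (horizontal axis) of the 24 member pairs in each of the 3 replicates (coloured points), with the mean as a black bar and an asterisk at pairs called by edgeR. The mean over libraries is 7.18 for miR-3613 and -5.56 for miR-4664, and of the 7 pairs without an asterisk 6 have points on both sides of 0.

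Reads that aligned to a hairpin but to none of its listed arms were found by subtracting the arm counts from the hairpin counts, with copies of a hairpin summed. In the members 2229, 2062 and 2359 reads lay outside the listed arms, 3.64%, 3.51% and 3.61% of the hairpin counts. In the other numbers the share was 0.203%, 0.260% and 0.266%. The share in the members was above that in the others in 3 of 3 libraries.

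Most of these reads came from the hairpin mir-4521. Outside its single listed arm it had 1722, 1496 and 1716 reads, which was 27.9%, 13.7% and 8.97% of its counts. These were 136, 136 and 147 RPM in replicates 1, 2 and 3, while its listed arm had 350.3, 859 and 1490. The outside reads thus differed little between libraries while the arm differed widely, and the share was lowest where the arm was highest. Without mir-4521 the members' share was 0.920%, 1.18% and 1.39%, still above the other numbers in each library.

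The share was also set beside the listing of arms. In the 24 numbers with 2 arms listed it was 0.283%, 0.260% and 0.343%, close to the value in the other numbers. Most counts of these 24 were of mir-3613, with 6061, 11090 and 12612 of 8468, 13077 and 14885. Its own share outside was 0.181%, 0.0992% and 0.143%, and the share of the 24 without it was not computed. In the 117 numbers with 1 arm the share was 3.88%, 4.04% and 4.20%. Without mir-4521, which is among them, it was 0.693%, 0.994% and 1.27%. The median over numbers was 0% with 2 arms listed and 4.76% with 1. In the 13 with none the share is 100% by construction, at 161, 188 and 199 reads in all. Among those 13, mir-3648 had the most reads with 79, 96 and 71, and mir-4680, mir-4751, mir-4761 and mir-4741 had 7 to 14 each.

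Of hairpins with 100 counts or more in every library, mir-3143 had the highest share, 30.8%, 29.9% and 27.2% of 104, 137 and 235 counts. The share was alike in the libraries while the counts were not. mir-3690 with 3.80% to 6.91%, mir-3687 with 2.17% to 6.78% and mir-4485 with 2.71% to 5.0% followed mir-4521. At the low end mir-4518, mir-4420 and mir-4792 had no read outside the arm, and mir-4497 had 1 in all. mir-3928 had 1 read fewer than its arms in replicate 1, so the tables are not strictly nested. Among thinner hairpins mir-3939 had 17, 28 and 37 of 49, 57 and 64 reads outside the arm, 34.7% (Wilson 95% interval 22.9 to 48.7), 49.1% (36.6 to 61.7) and 57.8% (45.6 to 69.1), and was named after its values were seen. Intervals cover counting error only.

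**Figure D4:**
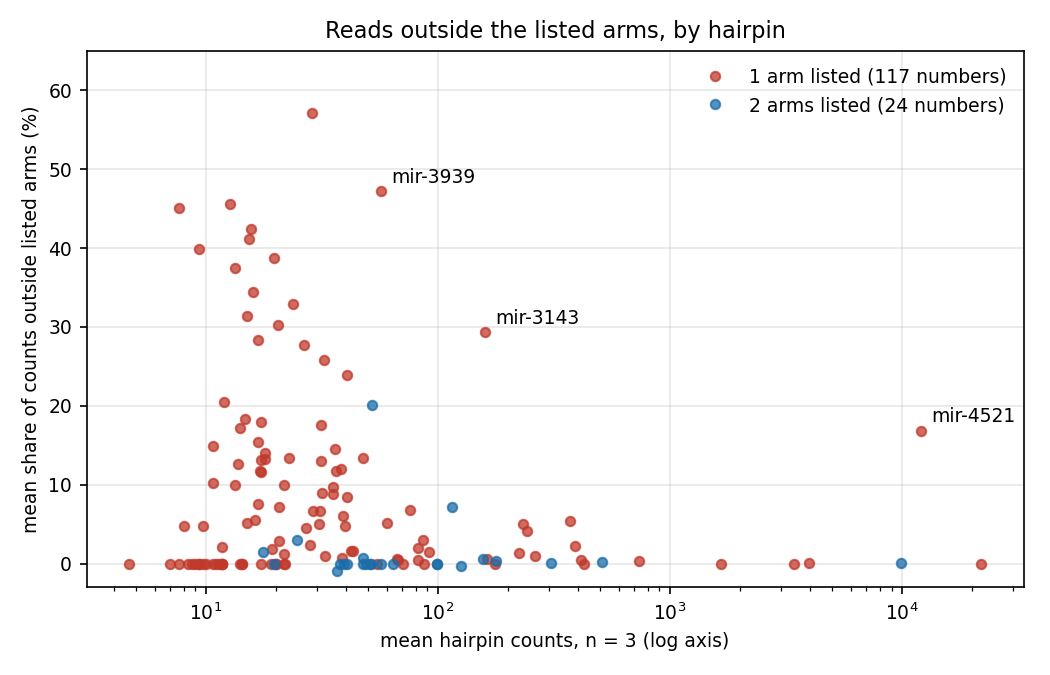
Mean share of hairpin counts outside the listed arms (vertical axis, percent) against the mean hairpin counts (horizontal log axis, n = 3) for the 141 numbers with at least 1 listed arm, with copies summed. mir-4521 lies at 16.9% and mir-3143, with fewer counts, at 29.3%, and shares over 40% are found only in hairpins with fewer than 100 mean counts.

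Some member hairpins overlap another listed hairpin on the opposite strand, and counting by strand is not stated, so their counts are uncertain. Of the 124 member hairpins with a position, mir-3074 overlaps mir-24-1 over 68 bases, and had 167, 169 and 197 counts beside 63310, 110227 and 109816. mir-3065 overlaps mir-338 over 67 bases, and had 24, 58 and 72 counts beside 175, 187 and 226. mir-3190 overlaps mir-3191 over 76 bases, with 53, 40 and 28 counts beside 23, 28 and 20. The counts of mir-3074 changed little between libraries while those of mir-24-1 were lower in replicate 1 than in the others.

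Copies also face each other. mir-3158-1 and mir-3158-2 lie on opposite strands of the same 81 bases, are 86.4% identical, and had 504, 327 and 314 and 459, 307 and 287 counts. mir-3130-1 and mir-3130-2 likewise, over 75 bases and 90.7% identical, had 16, 17 and 17 and 12, 16 and 16 counts. mir-3913-1 and mir-3913-2 share 100 bases and had 35, 35 and 38 and 37, 31 and 25 counts. Whether reads of 1 copy can be told from those of the other was not tested.

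Close neighbours on the same strand could be far apart in level. mir-3154 lies 116 bases from mir-199b and had 14, 24 and 27 counts beside 28020, 40224 and 48857. mir-4725 lies 52 bases from mir-365b and had 8, 13 and 19 counts beside 425, 682 and 746. mir-3677, 974 bases from mir-940, had counts of like size, at 70, 67 and 55 counts beside 57, 80 and 54.

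The spread between replicates was then compared with that of other miRNAs. The median coefficient of variation of FPKM over the 3 libraries, which is the SD over the mean, was 25.1% in the 109 members with 10 counts or more in every library and 27.3% in the 501 others. Counting alone would give a median of 17.3% in the members and 5.67% in the others. In the 21 members with 100 counts or more the median was 26.0%, where counting alone would give 5.11%, and in the 308 others it was 25.0%. Size factors set the typical miRNA equal across libraries. With them the medians at 10 counts or more were still alike, at 25.8% in the 109 members and 24.0% in the 501 others. At 100 counts or more, a setting added after seeing the data, they were 41.4% in the 21 members and 21.1% in the 308 others. The likeness thus depended on the scale at 100 counts but not at 10. In replicates 2 and 3 alone the members at 10 counts had a median of 13.0%, and the spread was thus smaller without replicate 1.

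Among the 21 members, miR-4326 had the lowest coefficient, 1.95%, below the 2.46% of counting alone, followed by miR-3615 at 3.40% and miR-3074-5p at 6.64%. miR-4521 had the highest at 63.4%, followed by miR-3613-5p at 38.4% and miR-4664-3p at 38.2%. Both ends of this order depended on the scale. With counts divided by median-of-ratios size factors, miR-4664-3p had 61.4%, miR-3922-3p 56.7%, miR-4746-5p 54.3% and miR-4497 52.8%, all above miR-4521 at 50.2%, while miR-3613-5p had 22.5%. On the same scale miR-3615 had 5118, 3486 and 3486 scaled counts and miR-4326 had 2145, 1492 and 1407. Both were then highest in replicate 1. miR-4521 kept its order with 5238, 9254 and 15079 scaled counts, as did miR-4497 in reverse with 36357, 19287 and 13020.

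**Figure D5:**
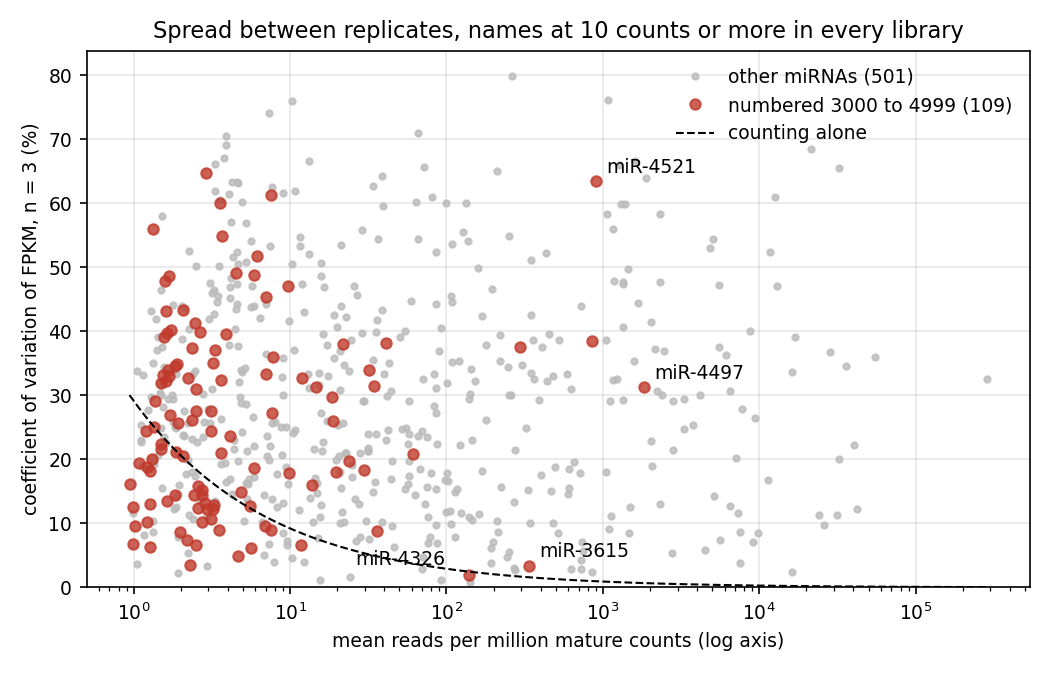
Coefficient of variation of FPKM over 3 libraries (vertical axis, percent) against mean RPM (horizontal log axis) for names with 10 counts or more in every library, members in red and others in grey. The dashed line is the coefficient that counting alone gives, and miR-4326 and miR-3615 lie near it while miR-4521 lies at 63.4%.

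The ratios of the members between replicates were set beside those of the rest of the table. Over all names above 0 in replicate 1, RPM had a median log2 ratio of 0.48 for replicate 2 over replicate 1 and of 0.57 for replicate 3. In the 109 members with 10 counts or more it was 0.18 and 0.12, and in the 501 others 0.49 and 0.56. Replicate 1 was the highest library for 37 of the 109 members, 33.9%, and for 19.0% of the others. With size factors, which remove the shift of the whole table, these shares were 62.4% and 44.5%, and the members had a median log2 ratio of -0.29 for replicate 2 and -0.44 for replicate 3.

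Among the most abundant members replicate 1 was more often the highest. Among the 20 highest, replicate 1 was the highest library for 12 and the lowest for 7, and with size factors for 16 and 3. Of the 21 members with 100 counts or more it was the highest for 57.1% and the lowest for 38.1%. Of the 308 others with such counts it was the highest for 19.2% and the lowest for 73.4%. With size factors these shares were 81.0% and 14.3% in the members and 45.8% and 45.5% in the others. miR-4497, miR-3158-3p, miR-4664-3p, miR-4746-5p and miR-3922-3p were highest in replicate 1 on both scales. miR-4521, miR-3613-5p and miR-4518 were lowest in replicate 1 on both. The replicates are of 1 group, so no test was made, and whether handling of the libraries had a part in this was not tested. Markers of white blood cells were among the miRNAs that differed between replicate 1 and the others, as given above.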

How the data were processed

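Small RNA for the 3 libraries was isolated from EV-infected MV4-11 cells with miRNeasy columns and prepared with a New England Biolabs kit. It was sequenced with strand information on an Illumina HiSeq instrument. The submitters' processing notes name Novoalign 2.08.03 and the builds hg19 and mm10, without roles. The authors counted reads over miRBase release 21. Deposited counts are whole and not normalized. Deposited FPKM values were computed by the authors from counts, feature length and library total. Adapter ligation depends on sequence, so levels of different miRNAs are not molar ratios, and without molecular identifiers counts include PCR copies.

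Members and lists were chosen with earlier results of these data known. Rows of a repeated name were summed. RPM are counts per 1000000 of the total of mature counts. Arm counts of all 195 pairs above 0 in every library were tested with edgeR 4.0.16 in R 4.3.3 (quasi-likelihood, library as block, total mature counts as library size), and checked with limma 3.58.1 and DESeq2 1.42.0. Simulated data with known ratios were used to test the fit, at a smaller spread than that of the pairs. The common coefficient of variation between libraries, beyond counting error, was 0.304 in the pairs. The simulation does not show how the fit behaves at that spread. Levels, shares and coefficients of variation are descriptions, with no test. Named members were the 10 highest, the 5 next hairpins, all tested pairs, the 3 most and least variable at 100 counts or more, the extremes of outside reads, the 3 lowest, shared seeds and overlapping hairpins. miR-4286, mir-3939 and same-strand neighbours were added after their values were seen. Marker lists served to check the cell type. Sequences are from RefSeq (GRCh38.p14) and genes from GENCODE. Python 3.11.15 with pandas 2.3.3, numpy 2.4.6 and statsmodels 0.14.6 (Wilson intervals) gave the other values, and matplotlib 3.10.9 the figures.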

Additional observations from a re-analysis of the deposited data

How the results depend on the processing

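Of 265 values recomputed for single members and pairs, 251 were labelled the same, 5 lost and 4 gained a call, and 5 changed sign. A pair was the same if it kept its direction and its side of the threshold. The level of a member has no call and was the same if it moved by less than its SD. Leaving out 1 of 3 replicates cannot move a mean that far, so those levels were the same by construction. The sign changed only in pairs that were not called. With 1 replicate left out, the log2 ratio of 5p to 3p ran from -0.28 to 0.83 for miR-3157 (-0.28 without replicate 2 and -0.14 without replicate 3), from -0.38 to 0.54 for miR-3942 (0.54 without replicate 3) and from -1.67 to 0.45 for miR-4423 (0.12 without replicate 2 and 0.45 without replicate 3). The cause was not tested.

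The 17 member pairs called were the same 17 with limma, with DESeq2, with size factors, with no filter and with single-row names, and 18 with no threshold on the ratio. The fits with no filter and with single-row names held the same 24 member pairs as the fit reported above. The setting with no threshold reused the ratios and p-values of that fit. With 10 counts or more in both arms 9 pairs were tested and 5 called, by construction. With 1 replicate left out 13 to 20 were called, the fewest without replicate 2.

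The members' share of mature FPKM, 0.567%, was 0.507% of counts and 0.324% without miR-4497 (an alternative added after seeing the data), and 0.559% to 0.578% with 1 replicate left out. Their median level, 89.3 FPKM, was 134 among names with 10 counts or more, and 81.2 to 92.0 with 1 replicate left out. It was 1.72 in RPM. The share of reads outside listed arms, 3.59%, was 0.295% with both arms listed, where mir-3613 held most reads. It was 5.76% without mir-4497, the hairpin of most reads, and 3.56% to 3.63% with 1 replicate left out. It was 1.17% without mir-4521 and 0.984% over hairpins with 1 arm without mir-4521 (both added). The median coefficient of variation, 25.1%, was 33.3% with no minimum count, and 13.0% to 25.7% with 1 replicate left out, the lowest without replicate 1. With size factors it was 25.8%, and 41.4% against 26.0% at 100 counts or more (also added). The causes of these moves were not tested. No paired analysis of groups was possible because the labels give 1 group. Depth limits the 56 members under 10 counts in some library, whose counting error is wide.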
